A study of Mus musculus with 10 samples.

Results

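Ligands, receptors and co-receptors of the platelet-derived growth factor (PDGF) and vascular endothelial growth factor (VEGF) families were examined in OP9 stromal cells. They were chosen by symbol and comprised 9 of the 26888 genes measured, namely the ligands *Pdgfa*, *Pdgfc*, *Pdgfd*, *Vegfb* and *Vegfc*, the PDGF receptors *Pdgfra* and *Pdgfrb*, and the neuropilins *Nrp1* and *Nrp2*. Of these, 8 exceeded 0.5 RPM (reads of a gene scaled to a common total of reads on genes in every library) in at least 1 of the 10 libraries and were tested, and *Pdgfd* did not.

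The study asked how OP9 cells differ between flat, submersed culture and culture as reaggregates, the form in which they are used to support maturation of blood stem cells. OP9 is a single mouse stromal line, labelled as derived from foetal calvaria of strain (C57BL/6xC3H)F2-op/op, and every library carries this strain label. For the 6 reaggregates, cells dispersed with trypsin were pelleted and kept for 48 h on nitrocellulose filters at the border of liquid and gas. Reaggregates 2, 4 and 6 received IL-3, at a labelled dose of 200 µg/µl, and reaggregates 1, 3 and 5 did not. The 4 flat cultures were held below medium, for a time and with an IL-3 status that the labels do not give. Flat cultures 2 and 4 carry the label of the de Bruijn group, flat cultures 1 and 3 have no source label, and the source of the reaggregated cells is not labelled. Before RNA extraction, reaggregates were also dispersed with collagenase and dispase, a step not described for flat cultures. Because only reaggregates were pelleted, held on filters and digested so, these steps and the form of culture cannot be told apart, nor can the source of the cells where it differed. Estimated reads on genes ranged from 7.35 to 9.43 M in reaggregates, with a median of 8.49 M, and from 8.26 to 8.70 M in flat cultures. A value of 3 reads, taken as the smallest that can be told from 0 by counting error alone, was worth 0.318 to 0.408 RPM depending on the library.

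Libraries did not all stand equally far from each other. Measured as a root mean square over all genes tested, the difference in log2(RPM + 0.5) was between 0.28 and 0.29 for reaggregates 1 and 2, 3 and 4, and 5 and 6, whereas other reaggregates differed by 0.53 to 0.76. It was between 0.50 and 0.73 for flat cultures with the same label and between 1.01 and 1.16 for flat cultures with different labels. Between a reaggregate and a flat culture it was 0.69 to 1.34, which overlaps the ranges within groups. Flat culture 3 was nearer to reaggregates 1 and 2, at 0.69 and 0.70, than to flat culture 1, at 0.73. The other reaggregates were further from flat culture 3, at 0.74 to 0.83. Nothing in the labels says that libraries of a group came from separate cultures, so p-values measure the spread between these libraries, which may be partly technical. Members near a call and the counts of each list are therefore also given with consecutive reaggregates averaged, as 3 samples, and the counts against flat cultures of each label. Averaging lowered the genes called from 1239 to 312 up-regulated and from 1106 to 429 down-regulated.

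Markers were compared with the labelled cell type. Of 10 stromal markers, 9 were tested, and the collagen genes *Col1a2* and *Col1a1* reached 9630 ± 1612 and 6632 ± 669 RPM (n = 6, SD) in reaggregates. *Mcam*, another stromal marker, was between 1.59 and 9.10 RPM over all libraries, and *Thy1* was at or under 3 reads in every library. Summed over 10 endothelial markers the level was between 1.54 and 8.39 RPM in each library. *Eng*, which is also among the stromal markers, contributed most of it on average. *Cdh5*, *Tek*, *Tie1*, *Emcn*, *Esam*, *Kdr* and *Flt4* were at or under 3 reads throughout, whereas *Pecam1* reached 0.716 RPM and *Flt1* 2.59 RPM. Summed over 8 blood cell markers it was between 2.65 and 7.61 RPM, with *Itgb2*, at up to 5.02 RPM, contributing most on average. Of the endothelial markers 3 were tested and 0 called between reaggregates and flat cultures, on averaging or against flat cultures of either label. Of the blood cell markers 5 were tested and 0 called, other than *Cd53*, which was called down against flat cultures without source label alone. *Cd53* reached 2.16 RPM, and *Ptprc* and *Cd52* were listed at 0 in all 10 libraries. In bulk RNA, fewer cells that express a gene and less RNA per cell cannot be told apart.

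PDGFs are dimeric ligands of the receptor tyrosine kinases encoded by *Pdgfra* and *Pdgfrb*, which are carried mainly by mesenchymal and perivascular cells and drive their growth and migration. VEGFs act on the related kinases encoded by *Flt1*, *Kdr* and *Flt4*, best known from blood and lymphatic endothelium, and neuropilins bind VEGFs as co-receptors and class 3 semaphorins together with plexins. In bone marrow and around the embryonic aorta, stromal cells positive for PDGF receptors surround vessels close to developing or adult blood stem cells.

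Between reaggregates and flat cultures, both PDGF receptors rose, and no member was called lower. Tested with limma over 16933 genes, with calls made from a 2-fold change upward at an adjusted p of 0.05 or less, 2 of the 8 members tested were up-regulated, where 7.32% of all genes tested were, and 0 were down-regulated, where 6.53% were. The counts were 2 and 0 on averaging and without the de Bruijn flat cultures, and 3 and 0 against the de Bruijn flat cultures alone, with *Nrp2* added. Of all genes tested, 1.84% were up- and 2.53% down-regulated on averaging, and 3.70% and 6.17% without the de Bruijn flat cultures. Against the de Bruijn flat cultures alone these shares were 15.2% and 10.5%. Every reaggregate exceeded every flat culture for *Pdgfra*, *Pdgfrb* and *Nrp1*, 3 of 8 members, where 7.80% of all genes tested showed this order. At an adjusted p of at most 0.05 and any fold change, 4 of 8 were higher, against 13.6% of all genes, and 0 were lower, against 15.7%. The median log2 fold change of the 8 members was 0.65, beside 0.04 over all genes tested. These shares describe genes that were chosen with results known.

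**Figure D1:**
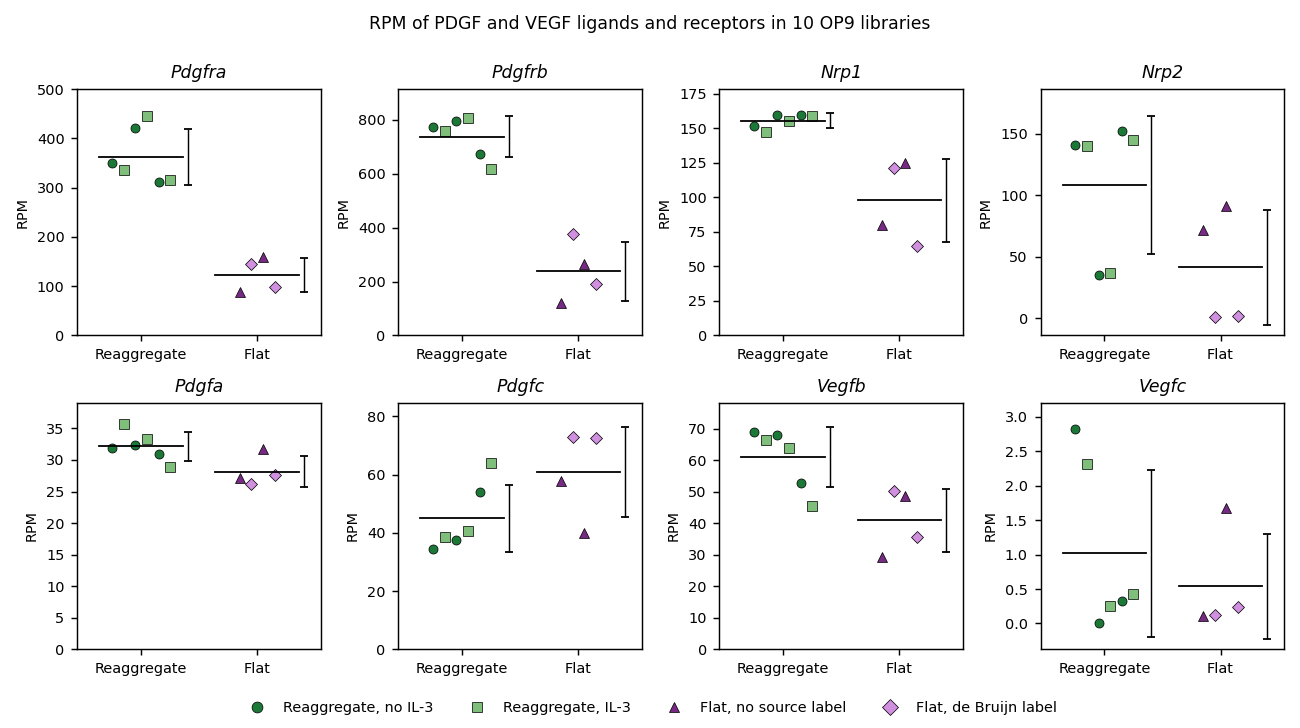
RPM of the 8 members tested in each of the 6 reaggregates and 4 flat cultures, with points coloured and shaped by IL-3 or source label, horizontal lines at group means and bars of 1 SD. Reaggregates lie above all flat cultures for *Pdgfra*, *Pdgfrb* and *Nrp1*, and *Nrp2* is at 1.19 and 1.34 RPM in flat cultures 2 and 4.

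*Pdgfra* encodes a receptor whose ligands include PDGF-A and PDGF-C chains, and lies on chromosome 5 from 75548316 to 75594229 in NCBIM37, the mm9 assembly. It was at 89.0, 145, 160 and 99.0 RPM in flat cultures 1 to 4, and between 311 and 446 RPM, with a median of 342 RPM, in the 6 reaggregates. The lowest reaggregate was above the highest flat culture, and reaggregates 3 and 4, at 421 and 446 RPM, were the highest. The reaggregates averaged 363 ± 56.8 RPM (n = 6, SD) and the flat cultures 123 ± 34.6 RPM (n = 4, SD), a log2 change of 1.58 (SE 0.193, adjusted p = 3.04e-04 with limma), higher in 6 of 6 reaggregates than in any flat culture. The change was equally large against flat cultures of either label, at 1.58 for the de Bruijn label and 1.59 for no label. With consecutive reaggregates averaged the limma adjusted p was 0.0175.

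*Pdgfrb*, the gene of a receptor for PDGF-B and PDGF-D, lies on chromosome 18 from 61204804 to 61244715. Its values were 122, 376, 266 and 190 RPM in flat cultures 1 to 4, and from 618 to 808 RPM, with a median of 766 RPM, in reaggregates. Flat culture 2 was the highest of the flat cultures and reaggregates 5 and 6 were the lowest of the reaggregates, without overlap between the groups. Means of 738 ± 75.6 RPM (n = 6, SD) and 239 ± 109 RPM (n = 4, SD) gave a log2 change of 1.74 (SE 0.261, adjusted p = 0.00103 with limma). Against flat cultures of the de Bruijn label it was 1.46 and against those without that label 2.02. With consecutive reaggregates averaged the limma adjusted p was 0.0352. The difference between receptors was not itself tested on these fold changes, but the ratio of *Pdgfra* to *Pdgfrb* within each library was compared. Its mean log2 value was −1.03 ± 0.13 (n = 6, SD) in reaggregates and −0.87 ± 0.39 (n = 4, SD) in flat cultures, which did not pass a two-sided exact permutation test over 210 splits (p = 0.429, adjusted p = 0.571 over 4 ratios). The difference, −0.16, ranged from −0.32 without flat culture 2 to −0.02 without flat culture 1, with exact permutation p of 0.0714 and 1.

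The co-receptor gene *Nrp1* lies on chromosome 8 from 130882973 to 131029362. It was at 80.1, 121, 125 and 65.1 RPM in flat cultures 1 to 4 and, with little spread, between 147 and 160 RPM in reaggregates, with a median of 157 RPM. All reaggregates exceeded all flat cultures. The means, 156 ± 5.24 RPM (n = 6, SD) and 97.8 ± 29.8 RPM (n = 4, SD), gave a log2 change of 0.72 (SE 0.181, adjusted p = 0.0135 with limma). That is below the 2-fold threshold, and *Nrp1* was not called. With consecutive reaggregates averaged its limma adjusted p was 0.130, and without reaggregates 3 and 4 it was 0.0587.

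*Nrp2*, the co-receptor gene known for binding VEGF-C and semaphorin 3F, lies on chromosome 1 from 62749859 to 62865269 and varied most among the members tested. In flat cultures 1 and 3, without source label, it was at 71.8 and 91.2 RPM, and in flat cultures 2 and 4, of the de Bruijn label, at 1.19 and 1.34 RPM. Reaggregates 1, 2, 5 and 6 were at 141, 140, 152 and 145 RPM, and reaggregates 3 and 4 at 35.4 and 36.6 RPM. Thus reaggregates 3 and 4 lay between the flat cultures of both labels, and the groups overlapped. The log2 fold change over all libraries was 2.93 (SE 1.14, adjusted p = 0.0714 with limma), and *Nrp2* was not called. It depended on the flat cultures compared. Against those of the de Bruijn label it was 5.70 (SE 0.614, adjusted p = 8.37e-05 with limma), against those without that label 0.17 (SE 0.645, adjusted p = 0.877 with limma). Leaving out flat culture 1 or flat culture 3 gave 3.80 or 3.91, with limma adjusted p of 0.0351 and 0.0149, and leaving out flat culture 2 or 4 gave 1.99 or 2.03, with 0.201 and 0.225. With consecutive reaggregates averaged the limma adjusted p was 0.241.

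The difference between flat cultures of different labels was tested directly, with 2 libraries on each side. *Nrp2* was lower in those of the de Bruijn label, by a log2 difference of −5.53 (SE 0.336, adjusted p = 0.00490 with limma), the value in place 33 from the lowest among 16933 genes. It was the only member called, 1 of 8 lower and 0 higher, where 3.87% of all genes were called lower and 1.82% higher. With any of the 4 flat cultures left out, so that a side held a single library assumed to vary like the others, the difference stayed between −5.70 and −5.36 but the limma adjusted p ranged from 0.0570 to 0.157. *Pdgfra* differed by 0.01 (SE 0.393), *Pdgfrb* by 0.57 (SE 0.524) and *Nrp1* by −0.17 (SE 0.413) on the log2 scale, none of them called. Quantile normalization moved the median log2 difference of all genes from −0.17 to 0.03 and *Nrp2* remained called under it. It also changed the split of all calls from 309 higher and 656 lower to 485 and 598.

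Other genes separated the same cultures. Summed over 8 pericyte and smooth muscle markers, the level was 2828 and 2845 RPM in flat cultures 2 and 4, 194 and 380 RPM in flat cultures 1 and 3, and between 88.0 and 465 RPM in reaggregates. *Acta2*, which held most of it, and *Tagln* were called higher with the de Bruijn label, with log2 differences of 3.14 and 4.74. So was *Cspg4*, encoding the NG2 proteoglycan, a pericyte marker and co-receptor of PDGF receptors, at 164 and 88.1 RPM in flat cultures 2 and 4 against at most 0.817 RPM in the other 8 libraries. These 3 of the 7 markers tested were called higher and 0 lower, where 1.82% and 3.87% of all genes were. The other markers tested were not called. Of these, *Cnn1* and *Mcam* had positive log2 differences, and *Rgs5* and *Des* had negative ones, −1.59 and −0.13. *Rgs5* was at 1.04 and 3.23 RPM in flat cultures 1 and 3 and 0.358 and 0.243 RPM in flat cultures 2 and 4. *Myh11*, which defines mature smooth muscle, was at or under 3 reads in every library. Among stromal markers *Ly6a*, at 2000 and 1260 RPM in flat cultures 1 and 3 and 13.4 and 15.3 RPM in flat cultures 2 and 4, and *Col3a1* were called lower, 2 of 9 lower and 0 higher, where 3.87% and 1.82% of all genes were. Another 5 of the 9 had positive log2 differences, the largest 3.89 for *Cxcl12* (limma adjusted p = 0.0610), at 125 and 662 RPM in flat cultures 1 and 3 and 4560 and 3990 RPM in flat cultures 2 and 4. Among reaggregates, numbers 3 and 4, where *Nrp2* was low, had the highest marker sums, 465 and 440 RPM. They also had the highest *Cxcl12*, 2220 and 2300 RPM, and the lowest *Ly6a*, 92.9 and 109 RPM. *Cspg4* was listed at 0 in both, and *Col3a1*, at 2570 and 2640 RPM, lay within the range of the other reaggregates. The part of such differences between cells in the *Nrp2* result was not tested.

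Because *Nrp1* and *Nrp2* can share ligands, their ratio within each library was compared. RPM of *Nrp1* over *Nrp2*, each with 0.5 added and without regard to length, was between 1.05 and 1.10 in reaggregates 1, 2, 5 and 6, and 4.47 and 4.19 in reaggregates 3 and 4. It was 1.11 and 1.37 in flat cultures 1 and 3, and 71.9 and 35.7 in flat cultures 2 and 4. Mean log2 ratios were 0.77 ± 1.04 (n = 6, SD) in reaggregates and 2.98 ± 3.12 (n = 4, SD) in flat cultures, a difference of −2.21 that did not pass (exact permutation test, two-sided, p = 0.133, adjusted p = 0.267). It ranged from −3.16 without flat culture 1 to −1.15 without flat culture 2.

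**Figure D2:**
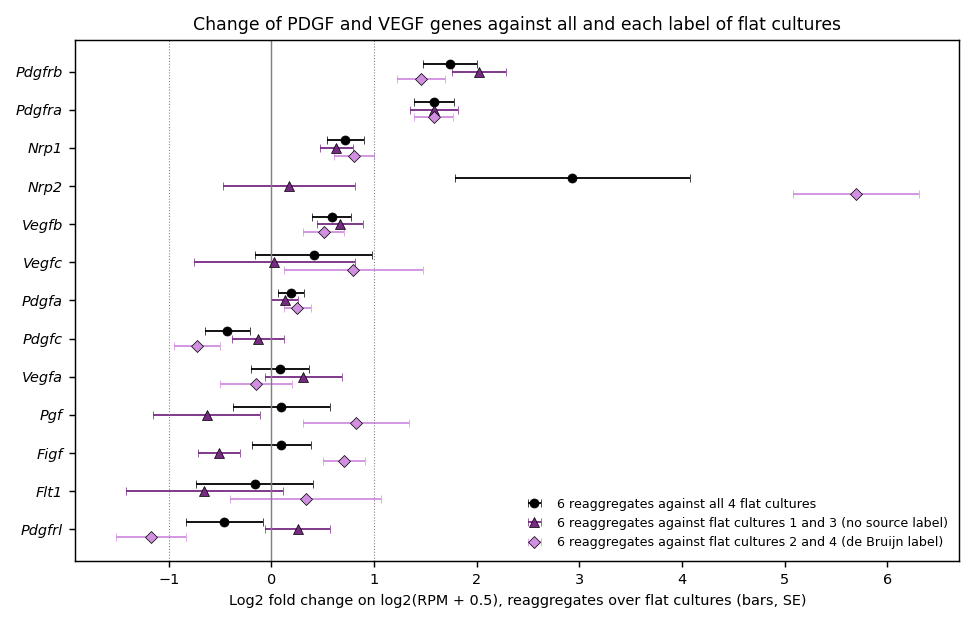
Log2 fold changes on log2(RPM + 0.5) of the 8 members tested and 5 other family genes in 6 reaggregates, against all 4 flat cultures and against the 2 of each label, with bars of 1 SE, and dotted lines at a 2-fold change. *Pdgfrb* and *Pdgfra* lie beyond 2-fold in all 3 comparisons, which share their reaggregates, and *Nrp2* moves from 0.17 to 5.70 with the label of the flat cultures.

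Among the ligands, *Pdgfa* (chromosome 5, 139451968 to 139473324) varied least. It was at 27.1, 26.2, 31.7 and 27.6 RPM in flat cultures 1 to 4 and between 28.9 and 35.7 RPM, with a median of 32.1 RPM, in reaggregates. The groups overlapped, and the log2 fold change of 0.19 (SE 0.126, adjusted p = 0.263 with limma) did not pass. An antisense gene, 6330403L08Rik, overlaps 813 bases of it, and without a record of strand their reads cannot be told apart there. Overlaps were smaller for *Pdgfc*, 147 bases with the antisense gene *Gm16000*, and for *Nrp1*, 80 bases with *Mir1903* on the same strand.

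*Pdgfc* (chromosome 3, 80840338 to 81017962), whose product must be cut by a protease before it binds PDGF receptor alpha, was at 57.8, 72.8, 40.1 and 72.6 RPM in flat cultures 1 to 4. Reaggregates 1 to 6 were at 34.6, 38.7, 37.6, 40.8, 54.0 and 63.9 RPM. Reaggregates 4, 5 and 6 lay within the range of the flat cultures, and flat cultures 1 and 3 within that of the reaggregates. The log2 fold change was −0.43 (SE 0.221, adjusted p = 0.156 with limma). It was −0.72 (limma adjusted p = 0.0249) when only flat cultures 2 and 4 were compared and −0.61 (limma adjusted p = 0.0335) without flat culture 3, in each case less than 2-fold. Against flat cultures 1 and 3 it was −0.13 (limma adjusted p = 0.741), and without flat culture 2 or 4 it was −0.33 (limma adjusted p = 0.326 and 0.349). With consecutive reaggregates averaged the limma adjusted p was 0.334. The log2 ratio of *Pdgfc* to *Pdgfa* had means of 0.44 ± 0.42 (n = 6, SD) in reaggregates and 1.06 ± 0.51 (n = 4, SD) in flat cultures, which did not pass (exact permutation test, two-sided, p = 0.0762, adjusted p = 0.267).

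*Pdgfd* (chromosome 9, 6168612 to 6378843), another ligand that is activated by proteolysis, was not detectable at this depth. Flat cultures 1 to 4 were at 0.0576, 0.119, 0.240 and 0 RPM, all under 3 reads. Of the reaggregates, 5 were listed at 0 and reaggregate 5 at 6.14e-05 RPM, a fraction of a read that mapped to several places.

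*Vegfb* (chromosome 19, 7056963 to 7062141) encodes a ligand of the receptor Flt1 and of neuropilin 1. It was at 29.4, 50.2, 48.5 and 35.5 RPM in flat cultures 1 to 4 and between 45.5 and 68.8 RPM, with a median of 65.1 RPM, in reaggregates. Only reaggregate 6 lay within the range of the flat cultures. The means of 60.9 ± 9.52 RPM (n = 6, SD) and 40.9 ± 10.1 RPM (n = 4, SD) gave a log2 change of 0.59 (SE 0.188, adjusted p = 0.0367 with limma), less than 2-fold and not called. With consecutive reaggregates averaged the limma adjusted p was 0.179, and leaving out any of 6 libraries, 4 reaggregates and flat cultures 1 and 4, also raised it above 0.05, to at most 0.104.

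*Vegfc* (chromosome 8, 55162886 to 55271808), the ligand gene best known from lymphatic vessels, was close to the floor. Reaggregates 1 to 6 were at 2.82, 2.31, 3.47e-05, 0.256, 0.325 and 0.425 RPM and flat cultures 1 to 4 at 0.115, 0.119, 1.68 and 0.243 RPM. Reaggregates 1 and 2 and flat culture 3 exceeded 1 RPM, and 4 of the 10 libraries were above 3 reads. The log2 fold change was 0.41 (SE 0.570, adjusted p = 0.598 with limma), and it ranged from 0.11 without reaggregate 1 to 0.85 without flat culture 3. It was 0.80 with flat cultures 2 and 4 alone and 0.03 with flat cultures 1 and 3, not called in any of these. The log2 ratio of *Vegfb* to *Vegfc* differed by 0.17 between the groups (exact permutation test, two-sided, p = 0.771, adjusted p = 0.771).

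Levels were compared between genes as RPM per kilobase of exon. In reaggregates *Pdgfrb* was highest, at 135 ± 13.8 (n = 6, SD), followed by *Pdgfra* at 53.9 ± 8.43, *Vegfb* at 38.0 ± 5.93 and *Nrp1* at 26.3 ± 0.888, and no neighbours among these overlapped. *Nrp2*, *Pdgfa* and *Pdgfc* came next, at means of 11.4, 10.3 and 8.83, and overlapped each other. *Vegfc*, at 0.539, and *Pdgfd* were last. In flat cultures *Pdgfrb* was again highest, at 43.5 ± 19.9 (n = 4, SD), then *Vegfb* at 25.5, *Pdgfra* at 18.3, *Nrp1* at 16.6, *Pdgfc* at 12.0, *Pdgfa* at 9.03 and *Nrp2* at 4.35, and each overlapped the next. Per kilobase, the mean of *Pdgfrb* was at percentile 97.0 of the genes tested in reaggregates and 88.5 in flat cultures, and that of *Pdgfra* at percentiles 92.0 and 76.3.

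IL-3 was compared within the reaggregates, 3 with it and 3 without. None of the 8 members was called, where 0% of all genes were, and their limma adjusted p was 1. In all, limma called 0 genes, with 68 at an unadjusted p of at most 0.05, or 564 with consecutive reaggregates as a block. The largest differences among members, in either direction, were 0.17 for *Pdgfc* (SE 0.258) and *Vegfc* (SE 0.821) and −0.12 for *Vegfb* (SE 0.191) on the log2 scale. *Pdgfra* and *Pdgfrb* differed by 0.02 (SE 0.183) and −0.04 (SE 0.152). With IL-3, *Pdgfc* was higher and *Vegfb* lower in each pair of consecutive reaggregates. With these pairs as a block the SE of *Pdgfc* and *Vegfb* was 0.060 and 0.058, and neither was called (limma adjusted p = 0.982 for both).

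The other genes of both families were read beside the members. *Vegfa*, the main VEGF of vessel growth, was at 96.5, 146, 129 and 162 RPM in flat cultures 1 to 4 and at 153, 161, 203, 196, 81.5 and 88.7 RPM in reaggregates 1 to 6. Placental growth factor (*Pgf*) was at 36.6, 9.07, 30.5 and 15.5 RPM and VEGF-D, listed under its older symbol *Figf*, at 34.6, 14.8, 37.2 and 15.5 RPM in the flat cultures. In reaggregates *Pgf* was between 9.73 and 39.8 RPM and *Figf* between 19.5 and 31.7 RPM, both lowest in reaggregates 3 and 4. Both ligand genes had their lower flat values in cultures 2 and 4, with log2 differences between labels of −1.45 and −1.22 that were not called (limma adjusted p = 0.0920 and 0.0734). In other settings of this comparison, *Pgf* was called lower with the stricter filter on RPM (limma adjusted p = 0.0463) and *Pdgfrl* higher under quantile normalization, at 1.66 (limma adjusted p = 0.0447). Of the VEGF receptors, *Flt1* was at most 2.59 RPM, and *Kdr* and *Flt4* were at or under 3 reads in every library, as was *Pdgfb*. Of the 5 family genes tested, which also included *Pdgfrl*, 0 were up-regulated and 0 down-regulated, and their log2 fold changes between cultures lay between −0.46 and 0.10. Averaging consecutive reaggregates left both counts at 0. Against flat cultures of the de Bruijn label *Pdgfrl* was called down, at −1.18 (limma adjusted p = 0.0183), and *Figf* was at 0.71 (limma adjusted p = 0.0189), less than 2-fold. Against those without it they were at 0.26 and −0.51, not called.

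In the lists that follow, counts of genes called stand beside 7.32% up-regulated and 6.53% down-regulated of all genes tested, or 1.84% and 2.53% with consecutive reaggregates averaged. Against flat cultures of the de Bruijn label these shares were 15.2% and 10.5%, and against those without it 3.70% and 6.17%. Of 9 genes of ligand processing, which comprise enzymes, a cofactor and a receptor, 1 was up-regulated and 1 down-regulated, or 0 and 1 on averaging. Against de Bruijn flat cultures alone 3 were up- and 2 down-regulated, and against the others 1 and 3. *Ccbe1*, a cofactor in the processing of VEGF-C, rose from 6.49 ± 6.65 RPM (n = 4, SD) to 22.0 ± 4.10 RPM (n = 6, SD), a log2 change of 2.46 (limma adjusted p = 0.0167, or 0.131 on averaging). Its flat values were 11.1 and 13.3 RPM in cultures 1 and 3 and 0.835 and 0.729 RPM in cultures 2 and 4. *Plaur*, the urokinase receptor gene, fell from 65.9 ± 5.26 RPM to 25.7 ± 3.07 RPM, and the gene of urokinase itself, *Plau*, was not called. *Plat*, encoding the activator that cleaves PDGF-C, was at 102 and 98.1 RPM in flat cultures 1 and 3, at 5.37 and 3.40 RPM in flat cultures 2 and 4 and between 79.0 and 113 RPM in reaggregates. Between the flat labels *Plat*, *Plau* and *Ccbe1* were called lower and *Pcsk6* higher with the de Bruijn label, 4 of the 9 genes, where 3.87% of all genes were called lower and 1.82% higher.

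Of 10 co-receptors and regulators of PDGF receptors, 1 was up-regulated and 0 down-regulated, also on averaging. With only flat cultures of the de Bruijn label 2 were up- and 1 down-regulated, and with the others 2 and 0, *Ptpn1* being called up in both. *Ptpn1*, whose phosphatase acts on PDGF receptors, rose from 50.9 ± 21.2 RPM (n = 4, SD) to 157 ± 51.2 RPM (n = 6, SD), a log2 change of 1.64 (limma adjusted p = 0.00228). *Lrp1*, a large receptor that associates with PDGF receptor beta, received the most reads, at 939 ± 585 and 1576 ± 405 RPM, and was not called (limma adjusted p = 0.0807).

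Among 29 intracellular transducers, 4 were up-regulated and 1 down-regulated, where 7.32% and 6.53% of all genes were. On averaging, 1 was up-regulated, *Nck2*, and 0 down-regulated. Against de Bruijn flat cultures 6 were up- and 2 down-regulated, and against the others 2 and 0, *Nck2* again among the 2. The adaptor *Nck2* rose from 45.4 ± 26.1 RPM (n = 4, SD) to 151 ± 27.9 RPM (n = 6, SD), a log2 change of 1.87 (limma adjusted p = 0.00155). Phospholipase C gamma (*Plcg1*) and *Stat3* rose by log2 fold changes of 1.63 and 1.63 (limma adjusted p = 0.00547 and 0.0108). The catalytic subunit gene *Pik3cb* fell by 1.81 on the log2 scale (limma adjusted p = 0.0134), from 23.3 and 14.7 RPM in flat cultures 2 and 4 and 3.42 and 4.91 RPM in flat cultures 1 and 3 to between 1.38 and 2.99 RPM. The median over the list was 0.23, beside 0.04 over all genes.

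Of 11 semaphorins, plexins and linked genes tested as neuropilin partners, 4 were up-regulated and 0 down-regulated, and on averaging 0 and 0. The counts depended on the flat cultures, with 4 up- and 3 down-regulated against those of the de Bruijn label and 1 and 0 against the others. None of the 4 genes was called against the others, where *Plxna2* was. *Sema3g*, at 0.345, 0.358, 2.75 and 0.121 RPM in flat cultures, was between 2.72 and 7.06 RPM in reaggregates, a log2 change of 2.22 (limma adjusted p = 0.00401). *Plxna3* and *Sema3b* rose by 1.64 and 1.62 on the log2 scale (limma adjusted p = 0.0246 and 0.00497). *Plxnd1*, a plexin gene known from vessels, rose by 1.07 (limma adjusted p = 0.0229). *Sema3d* and *Plxna4* were at or under 3 reads in every library.

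Of 7 extracellular binders, 2 were up-regulated and 1 down-regulated. Of these, *Vtn* passed the filter on RPM only through reaggregates, and its calls are therefore not counted further. Without *Vtn*, 0 binders were called on averaging and 0 against flat cultures without source label, but 1 up, *Sparc*, and 2 down, *Igfbp7* and *Thbs1*, against those of the de Bruijn label. *Sparc*, whose product binds PDGF-B and VEGF-A, rose from 1916 ± 1063 RPM (n = 4, SD) to 3523 ± 120 RPM (n = 6, SD), a log2 change of 1.06 (limma adjusted p = 0.0299). Its flat values were 3210 and 2350 RPM in cultures 1 and 3 and 1180 and 923 RPM in cultures 2 and 4. *Igfbp7* fell by 1.17 on the log2 scale (limma adjusted p = 0.00844), from 419 and 307 RPM in flat cultures 2 and 4 and 144 and 170 RPM in flat cultures 1 and 3. *Vtn* was listed at 0 in all flat cultures and reached 1.06 ± 0.610 RPM (n = 6, SD) in reaggregates. Fibronectin (*Fn1*) received the most reads and was not called.

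Groups of genes that mark the state of the cells also moved between the cultures. All 11 proliferation genes fell, with the largest log2 fold changes, −2.75, −2.70 and −2.35, in *Aurka*, *Ccnb1* and *Cdc2a*. Their sum was 343 ± 42.7 RPM (n = 6, SD) in reaggregates and 1347 ± 607 RPM (n = 4, SD) in flat cultures. *Top2a* received the most reads among them. Of 10 immediate early and stress genes 6 rose and 0 fell, with *Fosb*, *Atf3* and *Fos* changed most and *Egr1* receiving the most reads. Their sum was between 2024 and 2567 RPM in reaggregates, and 479, 798 and 860 RPM in flat cultures 1, 2 and 4, but 2912 RPM in flat culture 3. Of 11 hypoxia response genes, 1 rose, *Ankrd37*, and 3 fell, *Adm*, *Ldha* and *Pgk1*, and *Vegfa*, a member of that list, was not called. Of the stromal markers, 4 of 9 rose, *Col3a1*, *Col1a1* and *Col1a2* most, and of the pericyte and smooth muscle markers *Cnn1* fell. On averaging, 7 of 11 proliferation genes, the same 3 hypoxia response genes and 0 of the pericyte and smooth muscle markers fell, while 1 immediate early gene, *Atf3*, 0 hypoxia response genes and 0 stromal markers rose. Against flat cultures of the de Bruijn label 7 of the 10 immediate early and stress genes rose, and against the others 1, *Atf3*. Of the proliferation genes 7 and 11 fell in these comparisons, of the hypoxia response genes 4 and 3, and of the pericyte and smooth muscle markers 4 and 0. Of the hypoxia response genes 3 and 0 rose, and of the stromal markers 4 and 3 rose and 1 and 1 fell. Digestion of reaggregates before RNA extraction cannot be told apart from culture for the immediate early genes. What part these shifts had in the rise of *Pdgfra* and *Pdgfrb* was not tested.

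For each member the 2 most similar genes were sought among 11661 genes with a mean of at least 5 RPM, by the root mean square difference of mean-centred log2(RPM + 0.5) over the 10 libraries. *Pdgfra* was followed most closely by *Runx1* and *Fdxr*, at 0.13 and 0.13, where *Pdgfra* itself varied by 0.82 around its mean. *Pdgfrb* was followed by *Kdm5b* and the collagen receptor gene *Mrc2*, at 0.12 and 0.14 beside a variation of 0.94. For *Nrp2*, with a variation of 2.38, the nearest were *Gbp8* and *Ndrg1*, at 0.44 and 0.47. *Ndrg1* was listed at 0 in flat cultures 2 and 4, at 37.5 and 36.4 RPM in flat cultures 1 and 3, and at 6.42 and 8.07 RPM in reaggregates 3 and 4, where *Nrp2* was also low. The nearest genes were *Tmco3* for *Nrp1*, *Hif1an* and *Spg11* for *Vegfb*, *Maea* and *Mcm9* for *Pdgfa*, *Ssr3* and *Mrpl36* for *Pdgfc*, and *Mylk* and *Atp2b4* for *Vegfc*. Distances depend on how much a member varies, and those of *Vegfc*, 0.38 and 0.48, rest on values near the floor.

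In the genome, *Pdgfra* and *Pdgfrb* each lie beside a gene of a related receptor. *Kit*, 376711 bases from *Pdgfra*, was at most 0.108 RPM in any library, under 3 reads, and *Csf1r*, 20510 bases from *Pdgfrb*, was at most 1.23 RPM and not called. *Itgb1*, beside *Nrp1*, was at 789 ± 83.6 RPM (n = 6, SD) in reaggregates and 720 ± 52.9 RPM (n = 4, SD) in flat cultures, and was not called.

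Upstream sequences are shown for *Pdgfra*, 1 of the 2 receptor genes that rose, and for the neuropilin genes, of which *Nrp1* varied little among reaggregates and *Nrp2* strongly among all libraries. RefSeq promoters of GRCm38.p6 were matched for 8 of the 9 members, *Pdgfrb* being the exception, and the 250 bases before the start were searched on both strands. GGGCGG, the GC box (CCGCCC on the other strand), was found in 32.7% of 32851 promoters of this length, CCAAT in 33.8%, TATAAA in 12.4%, ACGTG in 16.6%, GGAATG in 12.6% and TGACTCA in 4.46%. *Pdgfra* held none of them, *Nrp1* held 1 GC box and *Nrp2* held 5, of which 2 share a base. GC content was 54.4%, 64.4% and 72.4%, beside a median of 52.4% over all promoters. Capitals mark matches, which describe these letters only. The windows are chr5:75152001-75152250, chr8:128358823-128359072 and chr1:62703067-62703316, all on the plus strand and written 5′ to 3′.
Pdgfra: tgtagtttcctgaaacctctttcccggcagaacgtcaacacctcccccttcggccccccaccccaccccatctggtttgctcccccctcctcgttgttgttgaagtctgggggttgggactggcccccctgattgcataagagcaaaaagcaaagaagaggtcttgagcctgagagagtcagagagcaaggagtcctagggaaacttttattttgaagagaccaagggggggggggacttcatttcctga
Nrp1: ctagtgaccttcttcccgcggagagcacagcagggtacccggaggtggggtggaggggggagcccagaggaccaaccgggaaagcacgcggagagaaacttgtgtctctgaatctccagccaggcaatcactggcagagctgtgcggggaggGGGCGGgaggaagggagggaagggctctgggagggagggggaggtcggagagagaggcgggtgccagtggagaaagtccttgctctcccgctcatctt
Nrp2: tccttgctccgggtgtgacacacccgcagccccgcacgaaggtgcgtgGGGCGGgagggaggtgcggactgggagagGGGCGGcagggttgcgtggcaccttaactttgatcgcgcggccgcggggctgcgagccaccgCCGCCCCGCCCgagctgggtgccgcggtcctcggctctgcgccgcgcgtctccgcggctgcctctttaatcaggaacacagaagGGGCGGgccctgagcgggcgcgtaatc

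Of the other matched members, *Vegfb* held 4 GC boxes, *Vegfc* 2 and *Pdgfa* 1 and 2 before its 2 listed starts, *Pdgfc* held GGAATG once and *Pdgfd* held TATAAA once.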

How the data were processed

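RNA of 10 OP9 libraries was sequenced as 50-base single reads after preparation with a TruSeq kit. The authors aligned reads with TopHat 1.2.0 to NCBIM37 (mm9), counted them per Ensembl gene with GeneProf, sharing reads of more than 1 place among genes, and deposited RPM for each library. Columns of the authors' own DESeq comparison, holding a fold change and adjusted p, were not used. The commonest low RPM value was taken as 1 read. Of values up to 2 RPM, between 43.9% and 47.9% were whole multiples within 0.1 read, so no count test was run.

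Genes above 0.5 RPM in at least 1 library were compared as log2(RPM + 0.5), which understates changes of low genes, with limma 3.58.1 in R 4.3.3 (empirical Bayes, trend), adjusted by the Benjamini-Hochberg procedure over 16933 genes. Ratios were tested by exact permutation. Exon lengths and coordinates came from GENCODE annotation of NCBIM37. Of each other list, up to 3 called genes of largest change and in most lists the gene with most reads over all libraries are named, together with genes called between labels, *Cspg4* and gene neighbours, some of which were chosen after their values were seen. A gene similar to *Nrp1* is not reported here. Members and lists were chosen with earlier results of these data known. Figures were drawn with matplotlib 3.10.9.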

Additional observations from a re-analysis of the deposited data

Results flagged for a closer look

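In 34 groups of 4 or 6 values of members, other family genes and ratios of members, 2 libraries stood apart from the rest of their group by Dixon's criterion, where chance flags about 1 in 20 groups, or 1.7 of 34. *Vegfc* was at 1.68 RPM in flat culture 3 whereas the next flat culture was at 0.243 RPM. *Pdgfrl*, encoding a protein similar to the PDGF receptors, was at 0.629 RPM in reaggregate 1 and at most 0.217 RPM in the other reaggregates. *Vegfc* was above 3 reads in 4 and *Pdgfrl* in 3 of the 10 libraries. Why these libraries stood apart was not tested.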

How the results depend on the processing

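*Pdgfra* and *Pdgfrb* were up-regulated in all 25 other settings tried, with log2 fold changes from 1.44 to 1.72 and from 1.46 to 2.02 and limma adjusted p of at most 0.0192 and 0.0386. *Nrp1* kept its direction in all 25, with an adjusted p above 0.05 in 5, and *Vegfb* likewise, with 13. The cause was not tested.

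The number of genes up-regulated, 1239, was 345 with only the reaggregates without IL-3, 277 with only those with IL-3, 2579 against flat cultures of the de Bruijn label, 627 against those without it and 312 with consecutive reaggregates averaged. The number down-regulated, 1106, was 474, 360, 1775, 1044 and 429 in the same order. Fewer samples were compared in each. With a library left out the ranges were 766 to 2121 and 815 to 1522, lowest without flat culture 4 and highest without flat culture 3. Between flat labels 965 genes differed, but 166 without the filter on low values, and 0 with any flat culture left out (range 0 to 0), with 1784 to 4137 at an unadjusted limma p of at most 0.05. For IL-3 the count was 0 throughout.

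With replicate number as a block in libraries 1 to 4, 1884 genes were up- and 1154 down-regulated, and without a block in the same libraries 1898 and 1169, a setting chosen after seeing the data, like that without reaggregates 3 and 4. Deviations from group means correlated between −0.16 and 0.19 for equal numbers and between −0.20 and 0.19 for unequal ones, so equal numbers were not more alike. Whether libraries of equal number shared a batch or day is not labelled, and so few correlations cannot decide it. Under the block the adjusted p of *Nrp1* was 0.0564.

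With a library left out, the difference in log2 ratio of *Vegfb* to *Vegfc*, 0.17, ranged from −0.17 to 0.46 and was −0.11 without reaggregate 3 and −0.17 without flat culture 3. That of *Pdgfc* to *Pdgfa*, −0.62, ranged from −0.86 to −0.49, with exact permutation p of 0.0317 without reaggregate 6 and 0.0476 without flat culture 3. Depth limits *Vegfc* and *Pdgfrl*, above 3 reads in only 4 and 3 of 10 libraries.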
